A study of Saccharomyces cerevisiae with 10 samples.

Results

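The transcripts of 10 regulators of glucose sensing and glucose repression in Saccharomyces cerevisiae were followed through an air-drying process. They were the glucose sensors SNF3 and RGT2, the repressor RGT1 with its co-regulators MTH1 and STD1, the repressors MIG1, MIG2 and MIG3, the kinase SNF1, and REG1, a regulatory subunit of the phosphatase that acts on Snf1. The genes were chosen by name for their place in the pathway, but with earlier results of these data known. Each of the 10 had 1 probe set on the array that was assigned to it and to no other gene. They stood among 5656 genes represented on the array, of which 5365 passed a filter on dim signal and were tested, and all 10 regulators passed that filter. No regulator was at the floor set for low signals on any array. No detection calls were used, so the dim signals of MIG1, MIG2 and MIG3 cannot be told from background, and the sizes of their changes are those of the measured signals. SNF3, RGT2 and REG1 were not shown to lie above background either. Their lowest signals were 0.967, 1.17 and 0.871 times the median of the array.

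The cells were commercial baker's yeast grown in fed-batch culture. The labels name no strain, genotype or ploidy. Pressed cell mass was spread on aluminium trays, blown with air in an oven held at 37 degrees, and sampled after 0, 1, 2, 4 and 8 h, the 0 h cells being those not yet dried. Poly(A) RNA was enriched and hybridised to Affymetrix yeast arrays, with 2 independent experiments, and so 2 arrays, at each time. No group was kept warm without drying, so heat, time in the oven and water loss cannot be told apart. The RNA came from whole cell masses, so fewer cells carrying a transcript and less of it per cell cannot be told apart either.

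Yeast reads external glucose through Snf3 and Rgt2, plasma membrane proteins related to hexose transporters that signal instead of carrying sugar. With glucose present, their signal leads to the phosphorylation and destruction of Mth1 and Std1, without which Rgt1 cannot hold hexose transporter genes repressed. In parallel, glucose keeps the Snf1 kinase, the yeast AMP-activated kinase, inactive through Reg1 and the phosphatase Glc7. The DNA-binding repressor Mig1 then stays in the nucleus, and the related Mig2 and Mig3 share part of its work. The branches are wired together, since MIG2, MIG3 and STD1 are themselves under Rgt1, while MTH1 and SNF3 are repressed by the Mig proteins. Much of this control acts on the proteins, which the arrays did not measure.

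Signal is given below as a multiple of the array's median over all non-control probe sets, and changes as differences of its log2 value. Array medians ranged from 23.6 to 115.4 intensity units, the lowest being those of replicate 1 at 8 h and replicate 1 at 2 h. For actin, the 3′ probe set read 6.44 and 6.64 times the 5′ probe set on these arrays, a ratio that climbs as RNA degrades. It was 5.38 for replicate 1 of the undried cells and between 2.62 and 3.90 elsewhere. Replicate arrays correlated with Pearson's r of 0.942 to 0.98 across all genes tested. The part of these array differences in the results was not tested, and results are given with and without the dim arrays where these change a call.

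Of the 10 regulators, 2 passed the test at some time, and both fell. MTH1 was lower at 2 h and MIG2 was lower at 4 h, while no regulator passed in the upward direction at any time. At 1 h of drying, 0 of 10 passed limma's moderated test at an adjusted p under 0.05, against 2.61% of all genes tested. At 2 h, 1 of 10 passed, against 1.51% of all genes, and 0.69% of all genes fell. At 4 h, 1 of 10 passed, against 1.45%, and 0.373% of all genes fell. At 8 h, 0 of 10 passed, against 0.951%. At an unadjusted p under 0.05 the test gave 2 regulators at 1 h (MTH1 and MIG1), 3 at 2 h (MTH1, MIG1 and MIG2), 2 at 4 h (MTH1 and MIG2) and 2 at 8 h (MTH1 and STD1), each of them lower than at 0 h. The share of all genes at that level was 13.9%, 13.1%, 10.7% and 9.26% at the 4 times. The pair of dried arrays lay wholly above or wholly below the 0 h pair for 7, 6, 4 and 6 of the 10 regulators at 1, 2, 4 and 8 h, against 52.2%, 43%, 44.3% and 36.2% of all genes, so such separation is common with 2 arrays per time. The median change of the 10 regulators was -0.15 log2 units, -0.35, -0.17 and -0.20 at 1, 2, 4 and 8 h, beside medians over all genes of 0.04, -0.05, 0.02 and 0.01.

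A joint F test of the 4 dried times, which asks whether a gene changed at any time, called 0 of the 10 regulators, against 3.28% of all genes tested. MTH1 came closest, at an adjusted p of 0.0589, followed by MIG2 at 0.0797, and at an unadjusted p under 0.05 limma's F test gave these 2 genes, against 16.2% of all genes. MTH1, MIG1 and MIG2 were the 3 regulators whose 8 dried arrays all lay below both 0 h arrays, a pattern held by 3.88% of all genes, and 0 of 10 had all dried arrays above both, against 4.49% of all genes. The plot of signal by array shows these courses for every regulator.

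**Figure D1:**
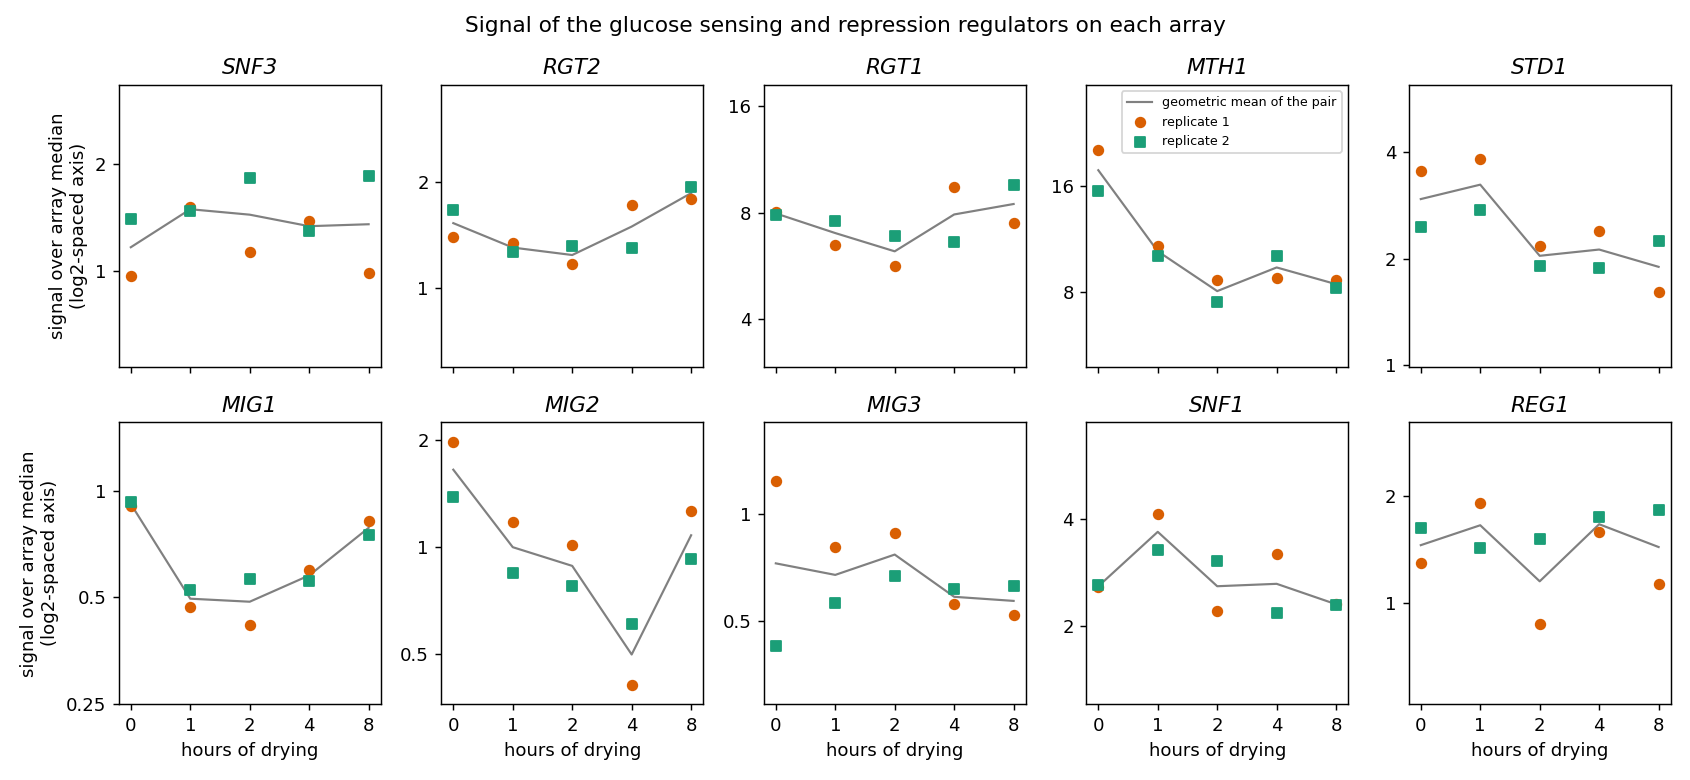
Signal of each of the 10 regulators as a multiple of the array median (vertical axes, log2-spaced, each spanning the same fold range) against hours of drying (horizontal axis, times evenly spaced). Circles are replicate 1, squares replicate 2, and the line joins the geometric means of the 2 arrays. MTH1, MIG1 and MIG2 lie below both of their 0 h arrays at every later time, whereas SNF3, MIG3 and REG1 overlap their 0 h arrays at most times.

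SNF3 (YDL194W) encodes the sensor that responds to low glucose. Its signal was 0.967 and 1.40 times the array median at 0 h, 1.51 and 1.47 at 1 h, 1.13 and 1.83 at 2 h, 1.38 and 1.29 at 4 h, and 0.987 and 1.85 at 8 h. Both 1 h arrays lay above both 0 h arrays after scaling, but not before it, and the groups overlapped at 2, 4 and 8 h. The lower value of the pair came from the dim replicate 1 at both 2 h and 8 h. The change against 0 h was 0.36 ± 0.35 log2 units at 1 h (SE, n = 2 arrays per time, limma adjusted p = 0.747), and its 95% interval ran from -0.38 to 1.10. At the later times the change lay between 0.20 and 0.30, with the same SE and intervals that ran from -0.54 at the lowest to 1.05 at the highest.

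RGT2 (YDL138W) encodes the sensor for high glucose. Its signal was 1.40 and 1.67 times the median at 0 h, 1.34 and 1.27 at 1 h, 1.17 and 1.32 at 2 h, 1.72 and 1.30 at 4 h, and 1.79 and 1.93 at 8 h. After scaling, but not before it, the 1 h and 2 h arrays were below both 0 h arrays. The 8 h arrays were above both after scaling only, with overlap at 4 h. None of these differences passed, the changes being -0.23 ± 0.27, -0.30 ± 0.27, -0.03 ± 0.27 and 0.28 ± 0.27 at 1, 2, 4 and 8 h (limma adjusted p from 0.712 to 0.983). At 8 h the 95% interval ran from -0.29 to 0.85. The log2 difference of SNF3 minus RGT2 within arrays averaged -0.05 ± 0.40 over the dried arrays and -0.40 ± 0.20 over the 0 h arrays (SD, n = 8 and 2). The shift of 0.34 did not pass an exact two-sided permutation test (p = 0.311, adjusted p = 0.311 over 3 pairs of related genes, 45 arrangements).

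RGT1 (YKL038W) encodes the zinc cluster protein that represses hexose transporter genes when glucose is scarce. It gave 8.04 and 7.88 times the array median at 0 h, 6.49 and 7.56 at 1 h, 5.64 and 6.86 at 2 h, 9.47 and 6.60 at 4 h, and 7.49 and 9.56 at 8 h. The arrays at 1 h and 2 h lay below both 0 h arrays, and those at 4 h and 8 h fell on either side of them. Before scaling, the 1 h and 2 h groups were not separated from the 0 h pair. The change farthest from 0 was that at 2 h, -0.36 ± 0.26 log2 units (limma adjusted p = 0.622, 95% interval from -0.91 to 0.19). At 4 h and 8 h the changes were -0.01 ± 0.26 and 0.09 ± 0.26.

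MTH1 (YDR277C), whose product binds Rgt1 and is needed for repression in the absence of glucose, fell. Its signal was 20.2 and 15.5 times the array median at 0 h, 10.8 and 10.1 at 1 h, 8.64 and 7.52 at 2 h, 8.75 and 10.1 at 4 h, and 8.66 and 8.21 at 8 h. Every dried array was below both 0 h arrays, and the 2 h arrays were also below both 1 h arrays. At 2 h the change was -1.13 ± 0.24 log2 units (SE, n = 2 arrays per time, limma adjusted p = 0.0276), a fall of 2.19-fold. By size it was number 36 of the 37 genes that fell at 2 h, whose median change was -1.65. The changes at the other times did not pass: -0.76 ± 0.24 at 1 h (adjusted p = 0.135), -0.91 ± 0.24 at 4 h (adjusted p = 0.0906) and -1.07 ± 0.24 at 8 h (adjusted p = 0.0513). Their 95% intervals ran from -1.28 to -0.25, from -1.43 to -0.40 and from -1.58 to -0.55.

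The call on MTH1 at 2 h rested on several arrays. Its adjusted p was 0.303 and 0.0712 without replicate 1 and replicate 2 of 0 h, 0.0684 and 0.067 without replicate 1 and replicate 2 of 1 h, and 0.084 without replicate 2 of 2 h, with changes between -1.33 and -0.94. At 2 h it passed without the dim replicate 1 of 2 h, at -1.23 ± 0.29 (adjusted p = 0.048), and with the dim 2 h and 8 h arrays both left out, at -1.23 ± 0.27 (adjusted p = 0.0148). With both dim arrays left out MTH1 also passed at 4 h (adjusted p = 0.027), and the F test then called MTH1 and MIG2. At 8 h MTH1 passed with the replicate number as a block (adjusted p = 0.0377) and without replicate 1 or replicate 2 of 2 h (adjusted p = 0.0377 and 0.0379). Before scaling, replicate 2 at 8 h had 948 intensity units, above the 855.4 units of replicate 1 at 0 h, so the separation of the 8 h group depends on dividing each array by its median.

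STD1 (YOR047C) encodes the paralogue of Mth1, which binds Rgt1 and also stimulates Snf1. Its signal was 3.54 and 2.46 times the median at 0 h, 3.82 and 2.75 at 1 h, 2.18 and 1.91 at 2 h, 2.39 and 1.89 at 4 h, and 1.61 and 2.24 at 8 h. The 1 h arrays overlapped those of 0 h, and all arrays from 2 h on lay below both. Before scaling, replicate 1 at 4 h had 191.1 intensity units and replicate 2 at 8 h had 259. Both were above the 149.8 units of replicate 1 at 0 h. The separation at 4 h and 8 h thus depends on dividing each array by its median. No comparison passed: the changes were 0.13 ± 0.29, -0.53 ± 0.29, -0.48 ± 0.29 and -0.64 ± 0.29 at 1, 2, 4 and 8 h (limma adjusted p from 0.456 to 0.91). The 8 h interval ran from -1.25 to -0.02.

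MTH1 and STD1 were set against each other within arrays. The log2 difference of MTH1 minus STD1 averaged 1.99 ± 0.31 over the dried arrays and 2.58 ± 0.10 over the 0 h arrays (SD, n = 8 and 2), and all 8 dried arrays lay below both 0 h arrays. Levels of different probe sets cannot be compared, so only the shift between the conditions is informative. It was -0.59 log2 units, with p = 0.0222 in the exact two-sided permutation test, the smallest value that 8 arrays against 2 can give. Adjusted over 3 pairs, that smallest value becomes 0.0666 unless another pair reaches it too, so this pair could not pass by itself and the adjusted p tells nothing of how alike the paralogues moved. Without replicate 1 of 8 h the shift was -0.65, and the adjusted exact p was 0.0417 because MIG2 minus MIG3 then also reached the smallest possible p, 0.0278.

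MIG1 (YGL035C) encodes the zinc finger repressor that carries the main glucose repression signal from Snf1. The probe set was dim, and its values cannot be told from background. They were 0.905 and 0.929 times the array median at 0 h, 0.468 and 0.524 at 1 h, 0.418 and 0.564 at 2 h, 0.597 and 0.556 at 4 h, and 0.822 and 0.750 at 8 h. All dried arrays were below both 0 h arrays, and the 8 h arrays lay nearest to them. Before scaling, the 4 h arrays had 47.8 and 41.1 intensity units and replicate 2 at 8 h had 86.6, above the 38.3 units of replicate 1 at 0 h. The separation at 4 h and 8 h thus depends on dividing each array by its median. The changes of -0.89 ± 0.37 log2 units, -0.92 ± 0.37, -0.67 ± 0.37 and -0.22 ± 0.37 at 1, 2, 4 and 8 h did not pass (limma adjusted p = 0.279, 0.285, 0.572 and 0.938). At 1 h and 2 h their 95% intervals, from -1.67 to -0.10 and from -1.70 to -0.13, lay below 0.

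MIG2 (YGL209W), whose product represses a set of genes that overlaps that of Mig1, had the largest measured fall among the 10 regulators in the comparisons with 0 h. Its signal was 1.98 and 1.38 times the median at 0 h, 1.18 and 0.845 at 1 h, 1.01 and 0.774 at 2 h, 0.408 and 0.605 at 4 h, and 1.26 and 0.924 at 8 h. The 4 h arrays were the lowest, and no dried array reached either 0 h array. At 4 h the change was -1.74 ± 0.35 log2 units (SE, n = 2 arrays per time, limma adjusted p = 0.023), with a 95% interval from -2.49 to -0.98. No fold is given, since the 4 h signals cannot be told from background. The changes of -0.73 ± 0.35 at 1 h, -0.91 ± 0.35 at 2 h and -0.62 ± 0.35 at 8 h did not pass (adjusted p = 0.378, 0.268 and 0.613).

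The call on MIG2 at 4 h was lost without any of the 4 arrays compared. Its adjusted p was then 0.16 and 0.0546 without replicate 1 and replicate 2 of 4 h, and 0.323 and 0.0737 without replicate 1 and replicate 2 of 0 h, with changes between -2.02 and -1.45. It was also lost with no filter on dim probe sets (adjusted p = 0.0599). Its raw signal at 4 h was 32.7 and 44.7 intensity units, against 83.8 and 136.1 units at 0 h. Replicate 2 at 8 h had 106.6 units, above the 83.8 units of replicate 1 at 0 h, so the separation at 8 h depends on dividing each array by its median.

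**Figure D2:**
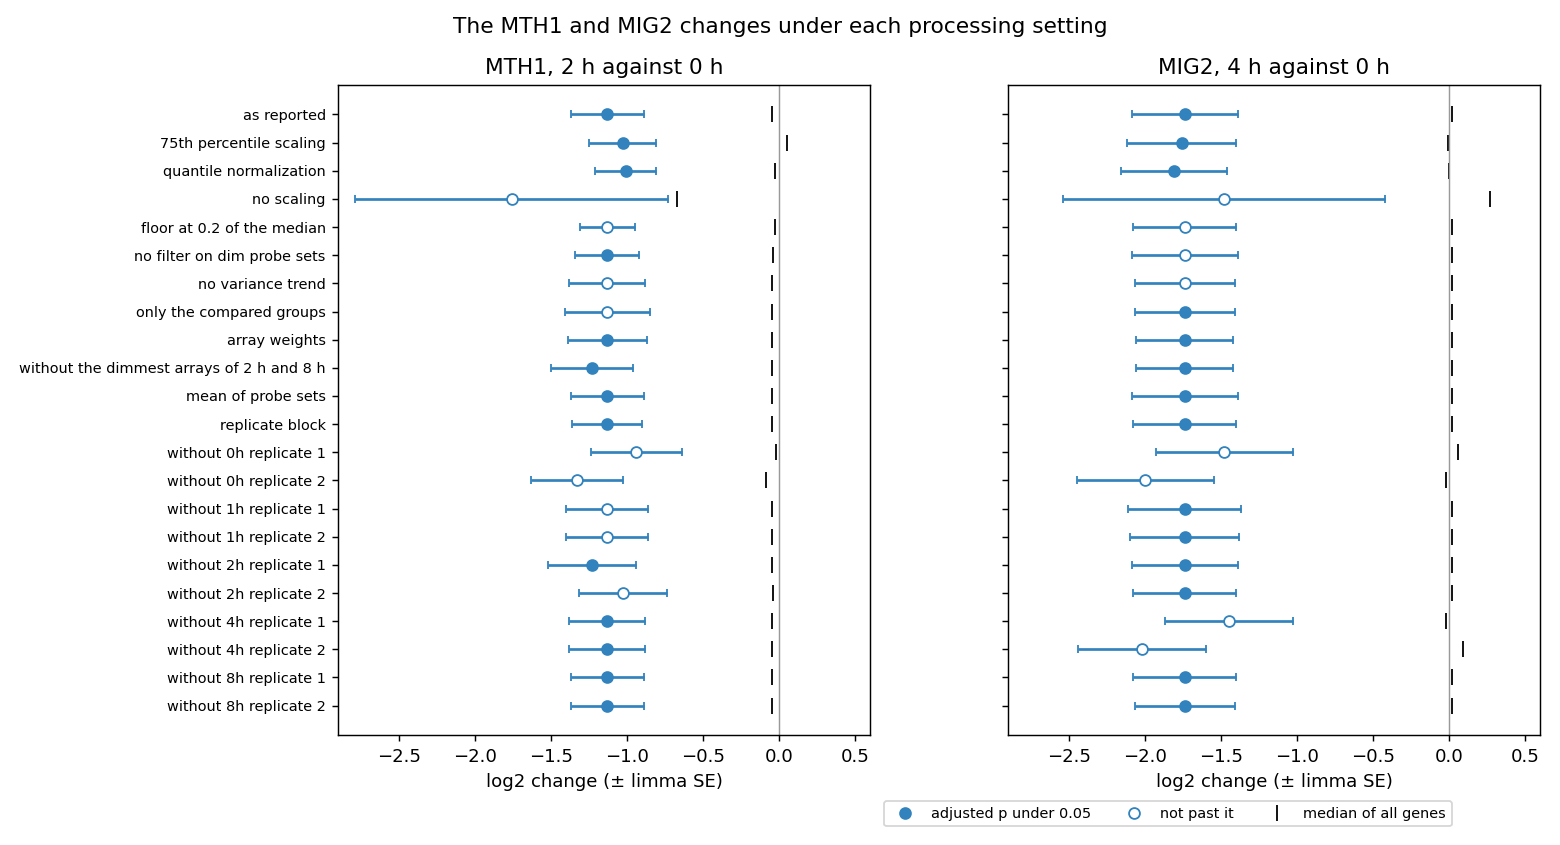
Log2 change of MTH1 at 2 h against 0 h (left) and of MIG2 at 4 h against 0 h (right), with bars of ± 1 limma SE, under each processing setting (rows). Filled points are past an adjusted p of 0.05, open points are not, and black ticks mark the median change of all genes. Every point is below 0, between -1.76 and -0.94 for MTH1 and between -2.02 and -1.45 for MIG2.

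MIG3 (YER028C) encodes a further zinc finger protein of the same family. Its signal was 1.24 and 0.424 times the median at 0 h, 0.808 and 0.560 at 1 h, 0.885 and 0.666 at 2 h, 0.556 and 0.612 at 4 h, and 0.517 and 0.624 at 8 h. The 0 h pair differed more than any later pair and enclosed every dried array, so no direction could be read. These values, too, cannot be told from background, which carries over to the differences between MIG2 and MIG3. The changes lay between -0.35 and 0.08 with an SE of 0.47, and the 95% intervals between them spanned -1.36 to 1.09. The log2 difference of MIG2 minus MIG3 within arrays averaged 0.37 ± 0.51 over the dried arrays and 1.19 ± 0.73 over the 0 h arrays (SD, n = 8 and 2), and 7 of 8 dried arrays lay below both 0 h arrays. The shift of -0.82 did not pass (exact permutation p = 0.0889, adjusted p = 0.133). Replicate 1 of 8 h, at 1.28, was the dried array not below both 0 h arrays. Without it the shift was -0.95, and separation was complete, so the exact permutation p was the smallest possible, 0.0278. Its adjusted value of 0.0417 was reached only because MTH1 minus STD1 was at that smallest p too, so no conclusion is drawn from it. The shift was -1.34 without replicate 1 of 0 h and -0.31 without replicate 2 of 0 h.

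SNF1 (YDR477W) encodes the kinase that relieves glucose repression by phosphorylating Mig1. Its signal was 2.57 and 2.60 times the median at 0 h, 4.15 and 3.27 at 1 h, 2.20 and 3.04 at 2 h, 3.18 and 2.17 at 4 h, and 2.31 and 2.29 at 8 h. Both 1 h arrays were above both 0 h arrays, those at 2 h and 4 h lay on either side, and both at 8 h were slightly below. Neither separation was present before scaling. The change at 1 h was 0.51 ± 0.27 log2 units (limma adjusted p = 0.438, 95% interval from -0.07 to 1.09), and those at 2, 4 and 8 h were 0.00, 0.02 and -0.17, each ± 0.27.

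REG1 (YDR028C) encodes the subunit that directs the Glc7 phosphatase to Snf1. Its signal was 1.30 and 1.63 times the median at 0 h, 1.92 and 1.43 at 1 h, 0.871 and 1.52 at 2 h, 1.59 and 1.75 at 4 h, and 1.13 and 1.83 at 8 h. The groups overlapped at every time, and the 2 lowest values came from the dim replicate 1 of 2 h and of 8 h. The changes were 0.19, -0.34, 0.20 and -0.02 log2 units at 1, 2, 4 and 8 h, each ± 0.33 (limma adjusted p from 0.75 to 0.996).

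**Figure D3:**
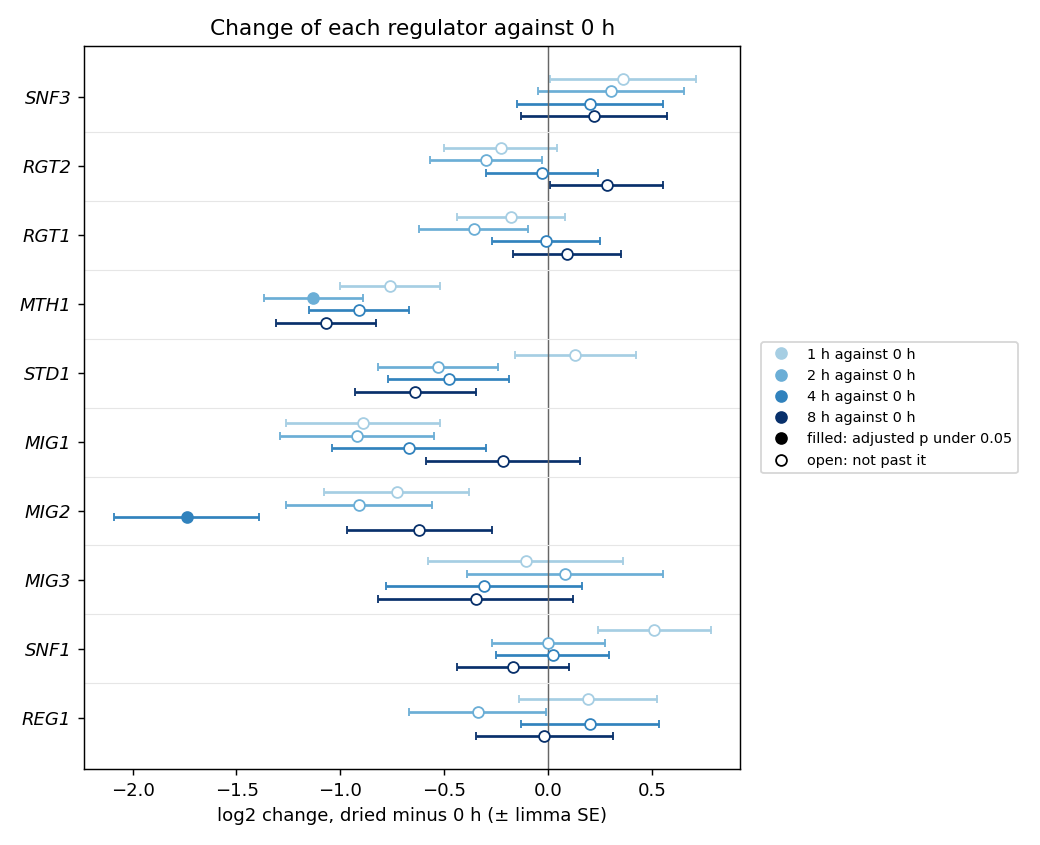
Log2 change against 0 h (horizontal axis) of each of the 10 regulators (rows), with 1 point for each dried time and bars of ± 1 limma SE, n = 2 arrays per time. Filled points, MTH1 at 2 h (-1.13) and MIG2 at 4 h (-1.74), are past an adjusted p of 0.05, and the open points are not.

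Between consecutive times the regulators did not pass limma's test. From 1 h to 2 h, 0 of 10 passed, against 1.85% of all genes tested, and 1, STD1, had an unadjusted p under 0.05, against 14.5% of all genes, being lower at 2 h by -0.67 ± 0.29 log2 units (adjusted p = 0.299). From 2 h to 4 h, 0 of 10 passed, where 0% of all genes did, and MIG2 alone had an unadjusted p under 0.05, against 7.44% of all genes, lower at 4 h by -0.83 ± 0.35 (adjusted p = 0.66). From 4 h to 8 h, 0 of 10 passed, against 0.0186% of all genes. MIG2 was again the single regulator with an unadjusted p under 0.05, against 7.46% of all genes, higher at 8 h by 1.12 ± 0.35 (adjusted p = 0.526), with signals of 1.26 and 0.924 at 8 h and 0.408 and 0.605 at 4 h.

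Around the 10 regulators, 44 other genes of the pathway in 6 lists were read from the same fit, and all 44 passed the dim filter. Of these, 4 passed in a comparison with 0 h: SIP4, HXT1, HXT4 and ICL1. By time, 3 of 44 passed at 1 h, against 2.61% of all genes, 1 at 2 h, against 1.51%, 1 at 4 h, against 1.45%, and 2 at 8 h, against 0.951%. Among 10 partners of Snf1 (its other subunits, its upstream kinases, GLC7, REG2 and HXK2), 0 passed at any time. GLC7, the phosphatase catalytic subunit that works with Reg1, had the smallest F test p of this list. Its signal was 12.4 and 9.19 times the median at 1 h, against 4.49 and 6.24 at 0 h, a difference of 1.01 ± 0.30 log2 units that did not pass (limma adjusted p = 0.106). With both dim arrays left out it passed (adjusted p = 0.0215). GLC7 had more than 1 probe set, and the mean of them gave a smaller difference at 1 h, 0.76 ± 0.32 (limma adjusted p = 0.302). The list's median change was 0.23, -0.10, 0.30 and 0.03 at 1, 2, 4 and 8 h.

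Among 7 genes that carry the sensor signal to Mth1 and Std1 (casein kinases YCK1 and YCK2 and the ubiquitin ligase with GRR1), 0 passed at any time. Their median change was 0.57, 0.09, 0.24 and 0.05 at 1, 2, 4 and 8 h. Positive changes were held by 7, 5, 7 and 4 of the 7 at these times, beside 2856, 2440, 2802 and 2755 of the 5365 genes tested. An unadjusted p under 0.05 was reached by 3 of 7 at 1 h, against 13.9% of all genes, and by 0 at the later times. HRT1, the ring finger subunit of the ligase, led the list with 14.7 and 14.3 times the median at 1 h, against 8.11 and 7.37 at 0 h. That difference was 0.91 ± 0.28 (limma adjusted p = 0.121). It passed with both dim arrays left out (adjusted p = 0.0154) and without replicate 1 or replicate 2 of 8 h (adjusted p = 0.0395 and 0.0396). In the list of corepressor and other repressor genes, 0 of 4 passed at any time. CYC8, part of the general corepressor that Mig1 and Rgt1 recruit, had the smallest F test p of that list, with a difference of 0.46 ± 0.32 at 1 h (adjusted p = 0.59). The median change of the 4 genes was 0.13, 0.09, -0.05 and -0.18 at 1, 2, 4 and 8 h.

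Genes that act downstream had larger measured changes than the regulators themselves in a few cases. SIP4, a zinc cluster activator of gluconeogenic genes that depends on Snf1, rose at 1 h, the single member of 6 Snf1-dependent activators to pass at any time. Its signal was 5.67 and 6.27 times the median at 1 h, against 1.30 and 1.42 at 0 h, a change of 2.13 ± 0.35 log2 units (limma adjusted p = 0.00464). The 0 h signals of SIP4, like those of SNF3 and RGT2, were not shown to lie above background. The size of its change is that of the measured signals. Without replicate 1 or replicate 2 of 0 h the adjusted p was 0.0527 and 0.0554, and without replicate 1 or replicate 2 of 1 h it was 0.0524 and 0.0586, at changes of 2.06 to 2.20. At 2 h it gave 3.76 and 1.75, and the change passed only without replicate 2 of 2 h (adjusted p = 0.0481). At 8 h SIP4 gave 1.38 and 1.08, overlapping the 0 h arrays. The median change of the 6 activators was 0.03, -0.23, -0.05 and -0.03 at 1, 2, 4 and 8 h.

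Of 13 glucose-repressed genes, which include SUC2, GAL1, FBP1 and PCK1, 1 passed at 1 h, against 2.61% of all genes, and 0 at the later times. This was ICL1, isocitrate lyase of the glyoxylate cycle, with 86.1 and 62.8 times the median at 1 h, against 34.3 and 22.8 at 0 h, a change of 1.39 ± 0.34 log2 units (limma adjusted p = 0.0429). The call was lost without any of the 4 arrays compared, at changes of 1.10 to 1.69 (adjusted p from 0.0998 to 0.473), and without replicate 1 or replicate 2 of 4 h (adjusted p = 0.0622 and 0.063). ICL1 passed in 10 of 21 other settings. The list's median change was 0.33, 0.21, -0.10 and 0.01 at 1, 2, 4 and 8 h.

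Of 4 hexose transporter genes that Rgt1 represses, HXT1 rose and HXT4 fell. HXT1, a low-affinity transporter gene, gave 2.97 and 2.27 times the median at 0 h, 27.8 and 29.1 at 1 h, 10.3 and 4.59 at 2 h, 26.5 and 16.4 at 4 h, and 8.58 and 15.8 at 8 h. Its change passed at 1 h (3.45 ± 0.38, limma adjusted p = 0.000197), 4 h (3.01 ± 0.38, adjusted p = 0.00123) and 8 h (2.17 ± 0.38, adjusted p = 0.0125), the last not without replicate 1 or replicate 2 of 0 h (adjusted p = 0.0971 and 0.165). At 2 h HXT1 did not pass (adjusted p = 0.0925), but did without replicate 2 of 2 h (0.0162) and without replicate 1 or replicate 2 of 8 h (0.0406 and 0.0414). HXT4, a transporter gene of high affinity, gave 12.1 and 8.23 at 0 h, 5.36 and 5.56 at 1 h, 1.84 and 2.11 at 2 h, 4.76 and 4.06 at 4 h, and 1.96 and 4.08 at 8 h. It was lower at 2 h by -2.34 ± 0.32 (limma adjusted p = 0.00143) and at 8 h by -1.82 ± 0.32 (adjusted p = 0.0125). The 8 h call was lost without replicate 1 of 0 h (adjusted p = 0.224) and without replicate 1 of 8 h (adjusted p = 0.0952). At 1 h and 4 h HXT4 differed by -0.87 ± 0.32 and -1.18 ± 0.32, which did not pass (adjusted p = 0.201 and 0.0984). With both dim arrays left out these passed (adjusted p = 0.0349 and 0.00645), and the 4 h change passed without replicate 1 or replicate 2 of 8 h (adjusted p = 0.0199 and 0.0206). HXT2 and HXT3 did not pass at any time, with changes of -1.07 ± 0.29 and -0.82 ± 0.33 at 2 h (adjusted p = 0.0996 and 0.284). The median change of the 4 genes was -0.23, -0.94, -0.61 and -0.90 at 1, 2, 4 and 8 h. All dried arrays of HXT4, as of MTH1, were below both 0 h arrays, and all dried arrays of HXT1 were above both. These comparisons share their 0 h arrays. Cross-hybridisation between these closely related transporter genes was not tested.

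**Figure D4:**
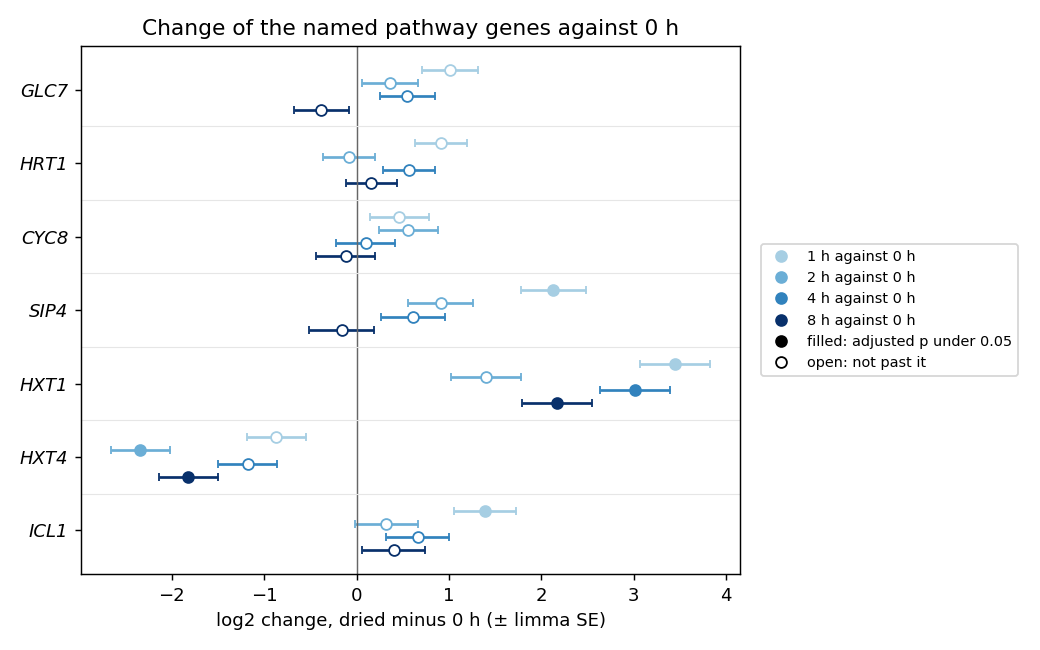
Log2 change against 0 h (horizontal axis) of the 7 named pathway genes outside the 10 regulators (rows), 1 point per dried time with bars of ± 1 limma SE, n = 2 arrays per time. Filled points are past an adjusted p of 0.05: SIP4 and ICL1 at 1 h, HXT1 at 1, 4 and 8 h, and HXT4 at 2 and 8 h.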

How the data were processed

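The table deposited by the authors holds a linear signal intensity for each probe set and array. Per the submitters' processing notes these values were made with GCOS, Affymetrix's array software, whose version is not given in the sources used here. The labels describe a further ratio table, which was not used here. Probe sets were named through a platform annotation, with symbols updated through gene identifiers. Of 9335 probe sets, 60 controls were left out, and 6504 of the others had 1 gene. Each array was divided by its median, floored at 0.1 of it and put on a log2 scale. A mean under 0.2 of the median led to a probe set being dropped, and the brightest probe set stood for a gene.

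Group means were fitted to all 10 arrays with limma 3.58.1 in R 4.3.3 with an intensity trend, and p values were adjusted by Benjamini-Hochberg over 5365 genes. Standard errors are limma's and draw on all arrays. Intervals are at 95%. The scripts were tested on simulated data, in which 200 of 5365 genes were given a change at 2 h against 0 h. At a log2 change of 1, 0% of these genes passed, and at a change of 2, 77% did. The spreads were shuffled among the genes, so the simulation kept no link between spread and signal. These shares are thus not the chance of finding such a change in the 10 regulators. Missing the threshold therefore does not show that a regulator was unchanged. The 95% intervals give the range for each regulator and differ between them. At 2 h that of SNF1 ran from -0.58 to 0.57, and that of MIG1 from -1.7 to -0.13. The alternatives tried were other scalings, a higher floor, no dim filter, no trend, fits of only the compared groups, array weights, the mean of a gene's probe sets, a replicate block, and leaving out each array or the dimmest ones. The number of arrays limits the precision.

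The 10 regulators, the lists and the tests were chosen with earlier results of these data known. Named were all 10, the list genes past the threshold against 0 h, and the gene of each list with the smallest F test p. A rule naming genes with a course most like a regulator's applied only to regulators past the F test, of which there were 0. Same-numbered arrays of different times deviated together weakly or not at all (r from -0.0585 to 0.175, over 0.1 in 4 of 10 pairs of times). Replicate 1 had the higher actin 3′ to 5′ ratio at every time, from 3.15 against 3.10 at 4 h to 6.44 against 2.70 at 8 h. The labels only number the duplicates, so the numbers were not taken as pairs, and a replicate block was tried as an alternative.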

Additional observations from a re-analysis of the deposited data

Results flagged for a closer look

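RGT2 was below both 0 h arrays at 1 h and 2 h and above both at 8 h, so its changes against 0 h ran in opposite directions. Before scaling, RGT2 had 59.3 and 164.4 intensity units at 0 h, 85.1 and 84.9 at 1 h, and 42.2 and 223.2 at 8 h. Its 2 h arrays had 33.6 and 80.4 units. These separations thus depend on dividing each array by its median. Its mean log2 signal was 0.58 ± 0.27 higher at 8 h than at 2 h (limma SE, unadjusted p = 0.0462, adjusted p = 0.522) and 0.51 ± 0.27 higher at 8 h than at 1 h (adjusted p = 0.346), so neither difference passed. SNF1 was above both 0 h arrays at 1 h and below both at 8 h. Before scaling, SNF1 had 108.8 and 256.2 intensity units at 0 h, 263.4 and 219.1 at 1 h, and 54.4 and 264.7 at 8 h. Its separations depend on that scaling too. Its signal at 8 h differed from that at 1 h by -0.68 ± 0.27 log2 units (unadjusted p = 0.0238, limma adjusted p = 0.185), which did not pass either. These comparisons were picked because their groups lay on opposite sides of the 0 h arrays. The unadjusted p values come from the same arrays and do not allow for that choice.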

How the results depend on the processing

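Across 21 other settings MTH1 at 2 h and MIG2 at 4 h stayed below 0 h, MTH1 past the threshold in 12 of the 21 and MIG2 in 13, and no change that passed turned its sign in another setting. Of the 40 changes of regulators against 0 h, 17 turned sign in some setting, and 0 of these 17 passed limma's test in any (SNF3 at 2 h, for one, ran from -0.32 to 0.65, and REG1 at 2 h from -0.96 to 0.06). At 1 h 1 regulator (MTH1) passed in place of 0 with quantile normalization, in a fit of only the compared groups and with array weights. At 2 h 0 in place of 1 passed without scaling, with the floor at 0.2 of the median, without the variance trend and in a fit of only the compared groups. At 4 h 2 passed (MTH1 and MIG2) with quantile normalization, with array weights and without the dimmest arrays, and 0 without scaling, with the higher floor, without the dim filter and without the trend. At 8 h 1 passed (MTH1) with 75th percentile scaling, quantile normalization or the replicate block. The F test gave 1 (MTH1) with quantile normalization and 2 (MTH1 and MIG2) with array weights or without the dimmest arrays. Leaving out single arrays gave 0 at 1 h, 0 to 1 at 2, 4 and 8 h, 0 to 2 by the F test (1 with replicate 1 of 2 h left out, 2 with replicate 2 of 8 h left out), and 0 between consecutive times. It moved the pair shifts from -0.66 to -0.52 for MTH1 minus STD1, from 0.20 to 0.48 for SNF3 minus RGT2 and from -1.34 to -0.31 for MIG2 minus MIG3. Where an array was left out, fewer arrays entered the fit. For the other settings the cause was not tested. Counts over all genes moved too: 140 genes passed at 1 h, and between 1 (without scaling) and 530 (only the compared groups) in the other settings. At 2 h the count was 81, and between 0 and 248, at 4 h 78, and between 0 and 231, and at 8 h 51, and between 0 and 187. Without scaling the median of all genes was itself -0.67 at 2 h, 0.27 at 4 h and -0.29 at 8 h. Sign turns of regulators in that setting include this shift of all genes. At 2 h MTH1 was -1.09 relative to the median of all genes without scaling. In the list genes, SIP4 and ICL1 at 1 h also missed the threshold without scaling, with the higher floor and without the trend, and ICL1 further with 75th percentile scaling (adjusted p = 0.0824) and no dim filter (0.0788). HXT1 and HXT4 at 8 h were lost without scaling, with the higher floor and without the trend, and HXT1 at 8 h further with no dim filter. GLC7 and HRT1 at 1 h passed with array weights, without the dimmest arrays and in a fit of only the compared groups. Same-numbered arrays deviated together weakly or not at all, and limma with the replicate block gave MTH1 at 2 h an adjusted p of 0.0196 and MIG2 at 4 h 0.0195.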

Other observations

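Of the Snf1-dependent activators, HAP4 and RDS2 were singled out after their values were seen. HAP4, the regulatory subunit of an activator of respiratory genes, gave 15.1 and 13.9 times the array median at 0 h, 8.31 and 9.43 at 1 h, 6.92 and 7.76 at 2 h, 11.8 and 8.47 at 4 h, and 9.23 and 7.81 at 8 h. All its dried arrays were below both 0 h arrays, as for MTH1, but no comparison passed, the change at 2 h being -0.98 ± 0.25 log2 units (limma adjusted p = 0.0711). RDS2, a zinc cluster regulator of gluconeogenic genes, gave 1.62 and 1.91 times the median at 2 h, against 3.49 and 3.24 at 0 h. Its arrays at 1, 4 and 8 h lay between 3.29 and 4.26. The 2 h difference of -0.93 ± 0.24 did not pass (limma adjusted p = 0.0772).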
